A study of Mus musculus with 6 samples.

Results

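The positive arm of the circadian clock was examined in the triceps brachii of SAMP-10 mice, with 6 member genes: *Arntl*, its paralogue *Arntl2*, their partners *Clock* and *Npas2*, and the ROR factors *Rora* and *Rorb*. The members were found by their platform gene symbols, and all 6 were measured, among 19505 genes with a symbol on the array. They were covered by 9 probe sets of 22206 (3 for *Rora*, 2 for *Rorb* and 1 for each of the others), and where a gene had several, the brightest by its mean over all arrays stood for it. The u40Hz-stimulation group held 3 mice (numbered 4, 10 and 11 in the labels), which were exposed without pause to vibration and inaudible low-frequency sound at 40 Hz for 5 weeks. The control group held 3 mice (numbered 1, 6 and 8) kept without it. All were male mice of the SAMP-10 strain, an inbred model of accelerated aging, so both groups share that background and no mouse of a normally aging strain was compared. The labels and methods name the triceps, although a passage of the study names the biceps. Ages are stated for the functional tests, and neither the age at which the muscles were taken nor the time of day is stated in the sources used here. The sample of each mouse was hybridized to 1 Clariom S mouse array (Affymetrix), on which a set of short probes reads each gene, and all values below are log2 signals, on which a difference of 1 is a doubling.

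BMAL1, the product of *Arntl*, pairs with CLOCK or with its close relative NPAS2, and the pair binds E-boxes in the promoters of clock genes and switches them on. Among their products are the PER and CRY proteins, which shut the pair off, and the REV-ERB receptors (*Nr1d1* and *Nr1d2*), which compete with the ROR receptors for shared response elements: RORs activate there and REV-ERBs repress. *Arntl* itself carries such elements, so its transcript and the E-box-driven transcripts peak at opposite phases of the day, and skeletal muscle keeps such a clock of its own.

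The response elements of *Arntl* are shown because its signal is the result that follows. RefSeq (GRCm38.p6) gave promoter windows, from 250 bases before to 50 after a transcript start, for all 6 members, 10 windows in all. The windows were searched on both strands for the ROR element core TAGGTCA, the E-box CACGTG and the D-box TTANGTAA, which occur in 2.61%, 7.15% and 2.32% of 32851 windows. Of the members, *Arntl* held the ROR core and *Rorb* held a D-box, and no member held CACGTG in these windows. *Arntl* has 2 annotated starts 46 bases apart, and around the second lie 2 copies of the form AAAGTAGGTNA, found by reading the window, whose first bases are 36 bases apart. That form was taken from this window, with 1 base left free, which lets both copies match. It occurs in 0.0609% of windows, a share that does not test whether the copies are unusual. The capitals mark the form, and the second copy contains the core.
Arntl, chr7:113207492-113207521, plus strand: attggtcggAAAGTAGGTTAgtggtgcgac
Arntl, chr7:113207528-113207557, plus strand: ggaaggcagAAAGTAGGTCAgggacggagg
Windows of some other clock genes are shown for the same motifs. *Nfil3* was the 1 of 12 clock genes outside the members, among those with a window, that held the ROR core, here on the opposite strand. *Ciart* held 3 E-boxes and *Per1* and *Cry1* 1 each, in capitals. *Bhlhe41* and *Tef* also held E-boxes and *Per3* held D-boxes, and these are not shown.
Nfil3, chr13:52981033-52981062, minus strand: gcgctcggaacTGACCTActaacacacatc
Ciart, chr3:95882255-95882356, minus strand: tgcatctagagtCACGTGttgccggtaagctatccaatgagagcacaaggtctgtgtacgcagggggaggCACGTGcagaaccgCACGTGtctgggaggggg
Per1, chr11:69098771-69098800, plus strand: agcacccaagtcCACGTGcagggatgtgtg
Cry1, chr10:85185097-85185126, minus strand: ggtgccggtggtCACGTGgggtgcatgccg

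The arrays had medians between 5.53 and 5.61, and precision is limited by there being 3 arrays in a group. The labelled tissue was borne out, since 9 skeletal muscle markers averaged from 19.28 to 19.32 in the u40Hz-stimulation group and from 19.12 to 19.46 in the control group, near the upper limit of the scale at 19.93. Other tissues were not evenly represented. The mean of 9 tendon markers was 6.86 to 7.71 in the u40Hz-stimulation group and 7.90 to 9.29 in the control group, without overlap, and 8 of the 9 had an unadjusted p under 0.05. The mean of 8 measured adipocyte markers was 12.23 in u40Hz mouse 4, against 6.99 and 7.29 in the other stimulated mice and 6.33 to 8.14 in the control group, and that of 3 brown adipocyte markers was 13.10 in mouse 4, against at most 4.25 in any other mouse. The mean of 8 slow fibre markers ran from 9.91 to 12.98 in the u40Hz-stimulation group and from 7.85 to 13.79 in the control group, with the highest value in control mouse 1. The means of 5 endothelial, 4 macrophage and 5 nerve markers were 9.81 to 10.12, 7.42 to 8.04 and 5.30 to 5.64 in the u40Hz-stimulation group and 9.16 to 9.97, 7.70 to 8.19 and 5.17 to 5.88 in the control group.

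No member passed an adjusted p under 0.05 in limma, where p-values are adjusted over all 22206 probe sets. Nor did any probe set (0.0%), and 1556 (7.01%) had an unadjusted p under 0.05. Of the 6 members 1, *Arntl*, had such a p, and it was also the 1 member whose groups did not overlap. The groups did not overlap in 12.4% of all probe sets, with the stimulated mice below in 6.05% and above in 6.4%. The mean was lower with u40Hz stimulation for 5 of the 6 members and higher for 1, where 48.7% of all probe sets had a lower and 51.3% a higher mean. The median log2 difference (u40Hz minus control) over the members was -0.23, against 0.01 over all probe sets. The study states 3 mice in each group. The limma p-values set a difference against the spread between these mice, with each variance moderated by those of all probe sets.

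*Arntl* signal was 6.41 in u40Hz mouse 4, 8.03 in mouse 10 and 7.56 in mouse 11, against 8.54 in control mouse 1, 10.44 in mouse 6 and 10.47 in mouse 8. Every stimulated mouse lay below every control mouse, by at least 0.51, and control mouse 1 stood closer to u40Hz mouse 10 than to the other controls. The range within the u40Hz-stimulation group was 1.62 and within the control group 1.93. The mean was 7.33 ± 0.83 in the u40Hz-stimulation group and 9.82 ± 1.11 in the control group (SD, n = 3 each), a log2 difference of -2.48 with a 95% interval from -3.80 to -1.17, or a 5.59-fold lower signal. Its difference was the second most negative of all 22206 probe sets. The unadjusted p was 0.00223 and the adjusted p 0.635 in limma, and the two-sided exact permutation test gave p = 0.1, the smallest p that 3 mice against 3 can reach. *Arntl* and *Dbp* RNA vary over the day, and since the time at which each muscle was taken is not stated, the part of sampling time in their differences was not tested. In bulk muscle, fewer cells of a type and less RNA per cell cannot be told apart. With the tendon marker mean as a covariate in limma the log2 difference of *Arntl* was -3.67 (95% interval -5.96 to -1.38, unadjusted p = 0.00649). Its standard error was 0.98, against 0.58 without a covariate. The tendon marker mean did not overlap between the groups, so fits with it, here and below, separate it poorly from stimulation. With the adipocyte marker mean, which stood out in u40Hz mouse 4 alone, the *Arntl* difference was -2.09 (unadjusted p = 0.00715 in limma). With the slow fibre marker mean it was -2.27 (unadjusted p = 0.00518). Without u40Hz mouse 4, which had the high adipocyte markers, the *Arntl* difference was -2.02, and without control mouse 1 it was -3.12.

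**Figure D1:**
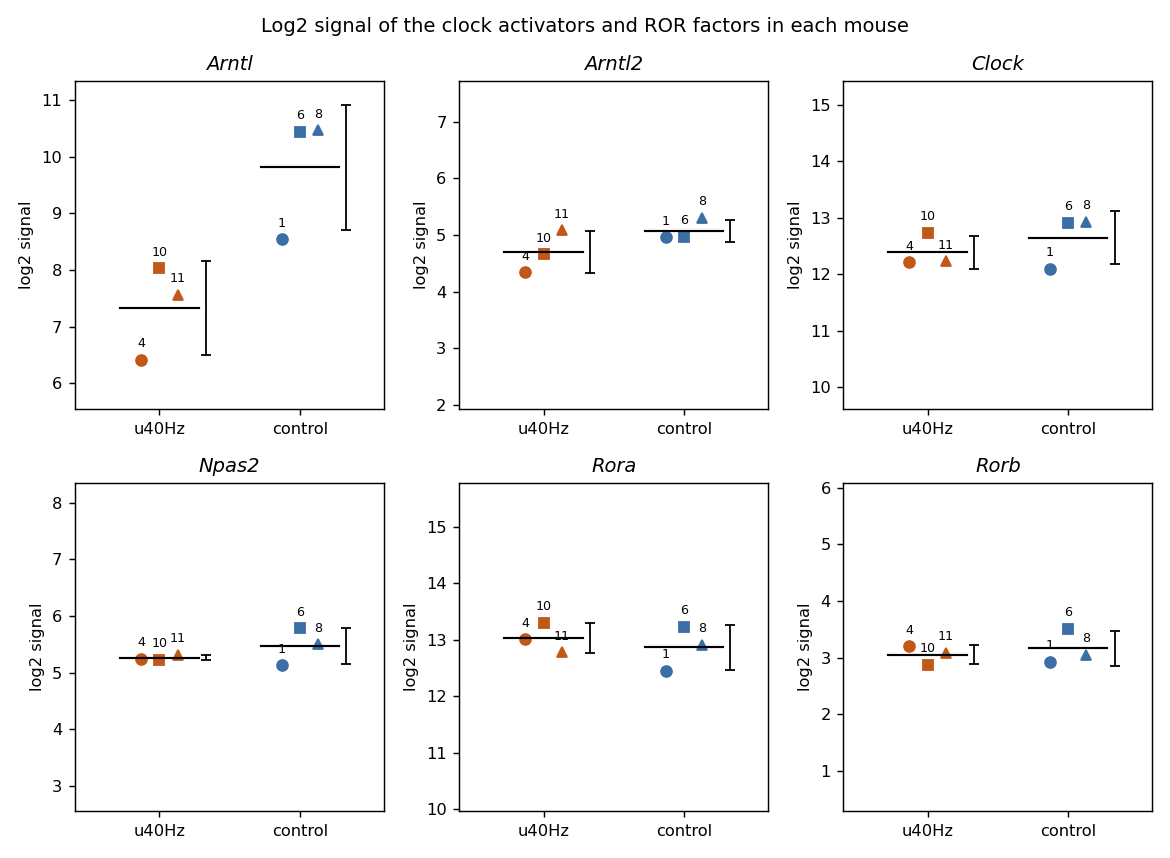
Log2 signal (vertical axes, each spanning the same 5.8 units) of the 6 members in the u40Hz-stimulation group (left, orange) and the control group (right, blue). Each point is a mouse with its number, horizontal lines are group means and bars are 1 SD (n = 3). The *Arntl* groups are apart, from 6.41 to 8.03 with stimulation and from 8.54 to 10.47 without, and those of the other 5 genes overlap.

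*Arntl2*, whose product BMAL2 can also pair with CLOCK, had a signal of 4.34, 4.66 and 5.08 in mice 4, 10 and 11 of the u40Hz-stimulation group and of 4.96, 4.97 and 5.30 in control mice 1, 6 and 8. The groups overlapped through u40Hz mouse 11 alone, which exceeded control mice 1 and 6. The log2 difference was -0.38 (95% interval -0.93 to 0.16, unadjusted p = 0.143, adjusted p = 0.750 in limma). The mean over all arrays was 4.89, below the median of each array. No detection call was used here, so whether such a dim signal stood above background was not tested. Without u40Hz mouse 11 the difference of *Arntl2* was -0.58, with an unadjusted p of 0.0416 in limma and an adjusted p of at least 0.722 in each fit without a mouse.

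*Clock* encodes the main DNA-binding partner of BMAL1. Its signal was 12.21, 12.73 and 12.23 in mice 4, 10 and 11 of the u40Hz-stimulation group and 12.10, 12.91 and 12.93 in control mice 1, 6 and 8. Control mouse 1 had the lowest value of all 6 mice, while the other control mice had the 2 highest. The log2 difference was -0.26 (95% interval -0.89 to 0.38, unadjusted p = 0.383 in limma), so a signal between 0.538 and 1.30 times that of the control group lay within the interval. Without control mouse 1 it was -0.53, with an unadjusted p of 0.0672.

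*Npas2* encodes a factor that can take the place of CLOCK in the pair. Its signal was 5.24, 5.23 and 5.31 in the stimulated mice and 5.13, 5.78 and 5.50 in control mice 1, 6 and 8. The stimulated mice lay within 0.08 of each other and inside the range of the control mice, which was 0.65. The log2 difference was -0.21 (95% interval -0.70 to 0.28, unadjusted p = 0.355 in limma). The mean over all arrays was 5.365, below the median of each array, and whether this signal stood above background was not tested.

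*Rora* encodes RORα, an activator at the elements shown for *Arntl*. Its signal was 13.01, 13.30 and 12.78 in mice 4, 10 and 11 of the u40Hz-stimulation group and 12.45, 13.23 and 12.91 in control mice 1, 6 and 8. Its log2 difference was 0.17 (95% interval -0.41 to 0.74, unadjusted p = 0.527 in limma), the only higher mean among the members, and the groups overlapped. Another probe set of *Rora*, whose identifier gives it no place in the genome, had a log2 difference of 0.42 (95% interval -0.22 to 1.05, unadjusted p = 0.172), with signals of 12.98, 13.49 and 12.48 in the stimulated mice and 12.32, 12.79 and 12.59 in the control mice. The remaining one, with signals from 6.13 to 7.38, was at -0.10 (unadjusted p = 0.751). No probe set of *Rora* thus had an unadjusted p under 0.05, and they differed in sign. Without control mouse 1 the log2 difference of the main probe set was -0.040.

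*Rorb* encodes RORβ, best known from brain and retina. Its signal was 3.20, 2.87 and 3.08 in the stimulated mice and 2.93, 3.51 and 3.05 in the control mice, a mean over all arrays of 3.11, near the dim end of a scale whose lowest value was 1.43. The log2 difference was -0.11 (95% interval -0.61 to 0.39, unadjusted p = 0.619 in limma). The other *Rorb* probe set was also dim, from 2.21 to 4.0, with a log2 difference of -0.06. Only 4 of the 6 members had a mean signal of at least 5, and *Arntl2* and *Rorb* did not.

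**Figure D2:**
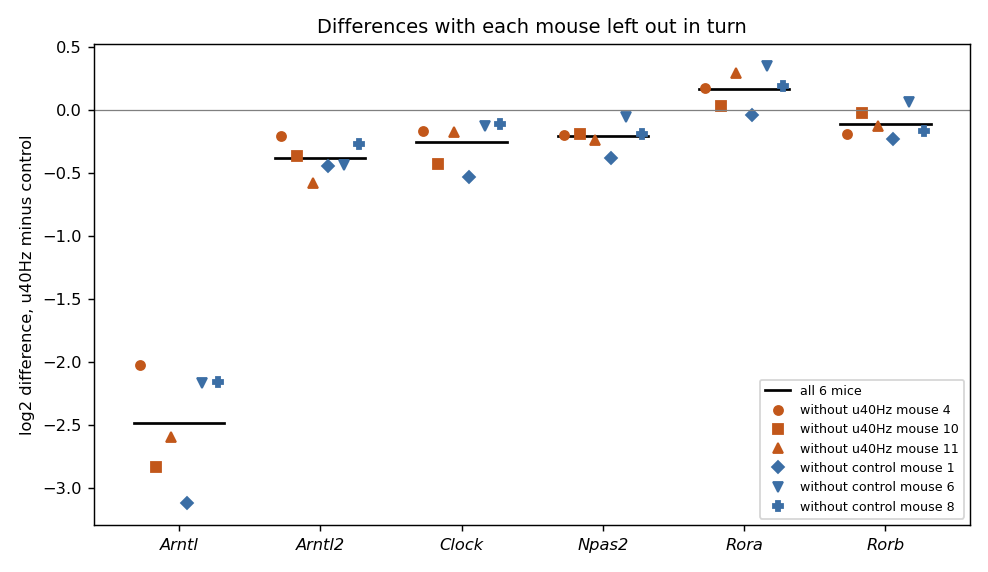
Log2 difference (u40Hz minus control, vertical axis) of the 6 members with all mice (black lines) and without each mouse in turn (orange for u40Hz mice, blue for control mice). *Arntl* stayed between -3.12 and -2.02, whereas *Rora* and *Rorb* fell on both sides of 0.

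Whether *Arntl* differed by more than the other members was tested on the log2 ratio of *Arntl* to each of them within the same array. The ratio of *Arntl* to *Clock* was -5.80, -4.70 and -4.67 in mice 4, 10 and 11 of the u40Hz-stimulation group and -3.56, -2.47 and -2.46 in control mice 1, 6 and 8. The difference between the groups in this ratio was -2.23. It was -2.10 against *Arntl2*, -2.27 against *Npas2*, -2.65 against *Rora* and -2.37 against *Rorb*. For all 5 pairs the groups did not overlap, and the exact permutation test gave p = 0.1 before and after adjustment over the 5 pairs, the smallest value 3 mice against 3 allow. The 5 ratios share the *Arntl* signal and are not independent of each other. As the other members had log2 differences from -0.38 to 0.17, the ratios largely restate that of *Arntl*, -2.48. As *Arntl2*, *Npas2* and *Rorb* were not shown to stand above background, the values against them compare array signals only. Without each mouse in turn the 5 differences ran from -3.08 to -1.74.

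By the probe set that stood for each gene, control mouse 1 had the lowest signal of the control mice in all 6 members. The dimmest *Rora* probe set differed, with 6.80 in control mouse 1 against 6.13 in control mouse 6. In *Arntl2* control mouse 1 barely differed from mouse 6 (4.96 against 4.97), whereas in *Arntl* it was far below both. Among 12 genes that BMAL1 and CLOCK drive through E-boxes, the same mouse had the highest signal of the controls in 6, namely *Per1*, *Per2*, *Ciart*, *Dbp*, *Nr1d2* and *Tef*. This order was seen after the values were known and was not tested, and its share over all probe sets was not counted.

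Among these 12 E-box-driven genes the mean was higher with u40Hz stimulation in 9 and lower in 3, where 51.3% of all probe sets had a higher mean. Their median log2 difference was 0.49. At an unadjusted p under 0.05 there were 3 higher, where 3.86% of all probe sets were higher at that p, and none passed the adjusted threshold in limma. *Dbp*, a PAR bZIP factor that carries clock timing to output genes through D-boxes, was at 16.80, 15.26 and 16.14 in u40Hz mice 4, 10 and 11, against 14.94, 13.71 and 12.82 in control mice 1, 6 and 8. Its groups did not overlap, and the log2 difference was 2.24 (standard error 0.55, unadjusted p = 0.0031 in limma). With the tendon, adipocyte or slow fibre marker mean as a covariate it was 2.55, 2.0 or 2.08, with unadjusted p-values of 0.0439, 0.0107 and 0.00749. The related factor *Hlf* was at 5.57, 5.97 and 5.65 in the stimulated mice and at 5.15, 5.25 and 5.12 in the control mice, a log2 difference of 0.56 (unadjusted p = 0.0186). Its control signals lay below the median of each array, and whether they stood above background was not tested. The repressor *Per2* was at 6.97, 7.02 and 7.07 in the stimulated mice and at 6.85, 5.94 and 6.36 in the control mice (log2 difference 0.64, unadjusted p = 0.0323). The p of *Dbp* stayed under 0.05 without any 1 mouse, that of *Hlf* did so in 4 of 6 such fits (0.44 without u40Hz mouse 10 and 0.53 without control mouse 8), and that of *Per2* in 1 of 6, the fit without control mouse 1 (0.87, against 0.42 to 0.66 without another mouse). *Per3*, also without overlap, was at 0.48 (unadjusted p = 0.0603). Control mouse 1 kept the groups of *Per1* and *Nr1d2* from separating. *Per1* was at 8.0 to 8.54 in the stimulated mice, against 8.72 in control mouse 1 and 7.04 and 7.54 in the other controls. *Nr1d2* was at 13.37 to 13.47 in the stimulated mice, against 13.41 in control mouse 1 and 12.55 and 12.61 in the other controls. With all mice their log2 differences were 0.50 and 0.57. Without control mouse 1 they were 0.98 and 0.85 (unadjusted p = 0.00715 and 0.00403 in limma), and without control mouse 6 they were 0.14 and 0.42 (unadjusted p = 0.715 and 0.178).

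*Ciart*, whose window held the 3 E-boxes shown above, was at 8.0, 5.89 and 8.35 in mice 4, 10 and 11 of the u40Hz-stimulation group and at 6.90, 5.40 and 5.71 in control mice 1, 6 and 8. Its log2 difference of 1.41 had an unadjusted p of 0.0561 in limma, and it depended on single mice. It was 2.17 without u40Hz mouse 10 and 1.86 without control mouse 1, with unadjusted p-values of 0.00141 and 0.0239, but 0.94 to 1.26 without any other mouse, with unadjusted p-values from 0.137 to 0.196. *Cry2* and *Bhlhe41* were at 0.14 and 0.17, and *Nr1d1*, *Tef* and *Bhlhe40* at -0.44, -0.36 and -0.08, each with an unadjusted p above 0.1. *Nr1d1* and *Nr1d2*, the paired REV-ERB receptors that act on *Arntl*, thus had means on opposite sides of the controls, though the *Nr1d1* value rested on control mouse 6, at 12.76 against 11.12 and 11.48 in the other controls, and was 0.05 without it. Of the 12 genes, 10 had a promoter window, and CACGTG was in that of 4 (*Per1*, *Ciart*, *Bhlhe41* and *Tef*).

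Of 7 genes listed as driven through ROR elements, 6 were measured, with a median log2 difference of -0.35. All 6 had a lower mean with u40Hz stimulation, where 48.7% of all probe sets had one. Since *Arntl*, *Clock* and *Npas2* are among them, the others are *Nr1d1*, *Cry1* and *Nfil3*, and *Nr1d1* was also listed as E-box-driven. The shared direction rested in part on single mice. *Nr1d1* was at 0.05 without control mouse 6, and *Cry1* was at -0.012 without u40Hz mouse 4. *Nfil3*, a repressor that competes with *Dbp* at D-boxes and whose window held the ROR core shown above, was at 7.05, 7.46 and 7.13 in mice 4, 10 and 11 of the u40Hz-stimulation group and at 7.69, 7.88 and 8.32 in control mice 1, 6 and 8. The groups did not overlap, and the log2 difference was -0.75 (standard error 0.23, unadjusted p = 0.0106 in limma). With the tendon marker mean as a covariate it was -0.64, with an unadjusted p of 0.187 in limma, and without each mouse in turn it ran from -0.89 to -0.57. At an unadjusted p under 0.05, 2 of the 6 were lower (*Arntl* and *Nfil3*), where 3.15% of all probe sets were lower at that p. *Cry1*, a repressor of the BMAL1 pair, was at -0.25 (unadjusted p = 0.363 in limma). Its window held CACGTG, as shown above, but it was listed here and not among the E-box-driven genes. Among all 11 genes of the clock's negative arm (PER, CRY and REV-ERB genes, *Ciart*, *Bhlhe40*, *Bhlhe41* and *Nfil3*), 7 were higher and 4 lower on average, with a median of 0.17 and 2 at an unadjusted p under 0.05, where 7.01% of all probe sets had such a p.

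**Figure D3:**
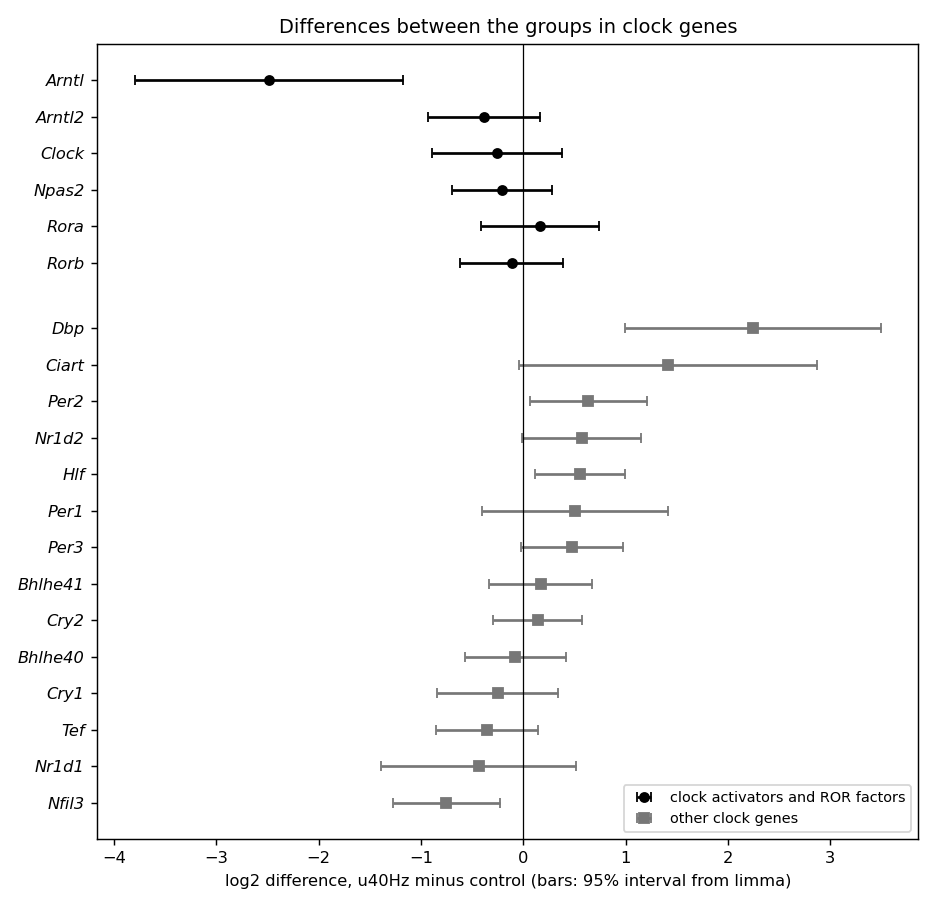
Log2 difference (u40Hz minus control, horizontal axis) of the 6 members (black circles) and 14 other clock genes (grey squares), with 95% intervals from limma. *Arntl* lies at -2.48 and *Dbp* at 2.24, and the intervals of the other 5 members include 0.

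The genes most like *Arntl* over the 6 arrays were sought by the root mean square difference between log2 signals, each centred on its gene's mean, among 17132 genes. The profile of *Arntl* itself had a root mean square of 1.48 about its mean. The nearest were *Ppp1r27*, *Uts2r*, *Otub2*, *Cdh4* and *Cpeb1*, at distances from 0.49 to 0.67. Except for *Cdh4*, which encodes a cadherin and had a log2 difference of -1.98, their groups overlapped. *Uts2r* encodes the urotensin receptor, *Otub2* a deubiquitinase and *Cpeb1* a protein that binds the tails of mRNAs. *Ppp1r27*, a regulatory subunit of protein phosphatase 1, was at 9.62, 11.31 and 11.03 in mice 4, 10 and 11 of the u40Hz-stimulation group and at 10.68, 13.25 and 12.83 in control mice 1, 6 and 8. It shared with *Arntl* the lowest value in u40Hz mouse 4 and the low value of control mouse 1. The other members ranked from 791 (*Clock*) to 7540 (*Rora*), and *Nfil3* ranked 120.

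The gene nearest to the *Arntl* profile turned upside down was *Dbp*, at a distance of 0.32, ahead of *Pank1* (0.55), which starts coenzyme A synthesis, and of *Tspan12*, *Acaa2* and *Slc27a1* (0.61 to 0.63). *Dbp* was highest in u40Hz mouse 4, where *Arntl* was lowest, and both had an intermediate value in control mouse 1. *Acaa2* and *Slc27a1* encode a thiolase of β-oxidation and a fatty acid transporter. The groups of *Pank1*, *Tspan12* and *Acaa2* overlapped, and those of *Slc27a1* did not. Like *Dbp*, these genes were highest in u40Hz mouse 4, which also had the high adipocyte markers. *Pank1* was at 10.51 there, against 8.67 and 9.24 in the other stimulated mice, and *Slc27a1* at 13.81 against 12.94 and 13.76. The part of adipocyte content in their values was not tested. In this order *Ciart* ranked 32, *Per1* 179, *Nr1d2* 311 and *Per2* 337. The distance depends on the size of a change as well as on its shape, and it includes the difference between the groups.

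**Figure D4:**
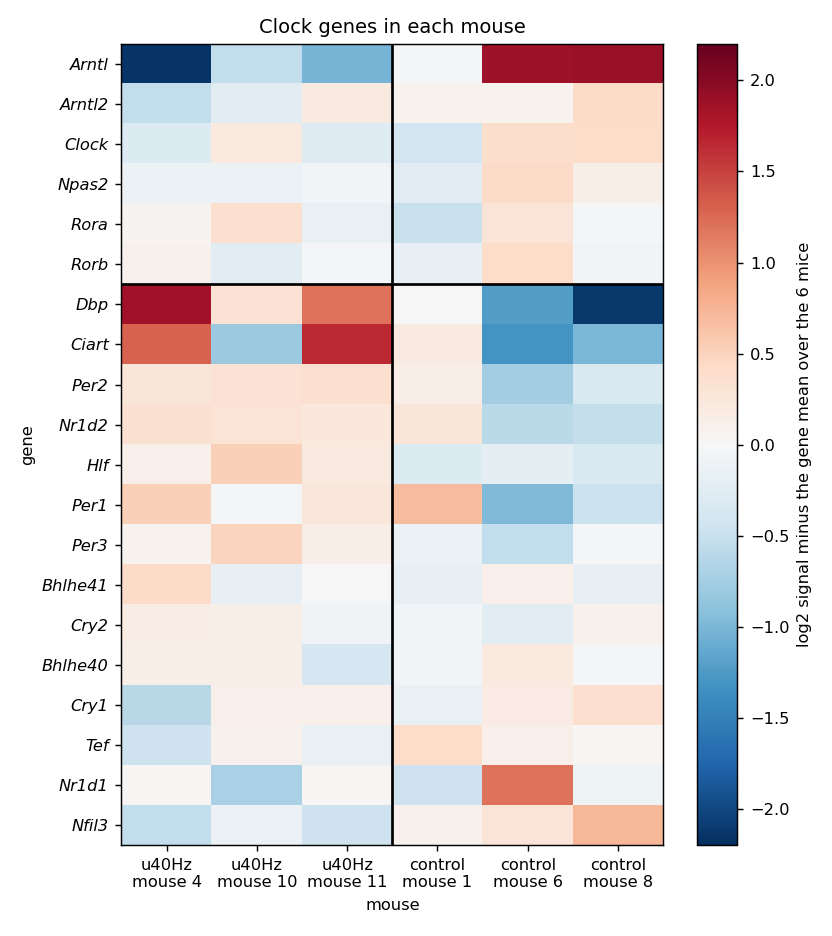
Log2 signal of each clock gene minus its mean over the 6 mice (colour scale, red higher and blue lower), with members above the horizontal line and other clock genes below it, and the u40Hz-stimulation group left of the control group. *Arntl* is blue in the stimulated mice and red in control mice 6 and 8, *Dbp* shows the opposite, and control mouse 1 is pale in both.

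Of 24 listed cofactors and modifiers of the clock proteins, 19 were measured, with 12 higher and 7 lower means, a median log2 difference of 0.03 and 3 at an unadjusted p under 0.05, where 7.01% of all probe sets had such a p. *Usp2*, a clock-driven ubiquitin protease, was at 13.92, 13.79 and 14.02 in the stimulated mice and at 13.69, 12.95 and 13.03 in control mice 1, 6 and 8 (log2 difference 0.69, unadjusted p = 0.0195 in limma). *Ppargc1a*, a coactivator of the ROR receptors, was at 0.80 (unadjusted p = 0.0404) with overlapping groups, since control mouse 1 was at 13.56. *Huwe1*, a ubiquitin ligase, was at 12.88, 13.32 and 13.19 in the stimulated mice and at 13.52, 13.63 and 13.61 in the control mice (log2 difference -0.46, unadjusted p = 0.0445). Without 1 mouse in turn, the unadjusted p stayed under 0.05 in 3 of 6 fits for *Usp2* (0.55 to 0.92), in 1 for *Ppargc1a* (0.48 to 1.18) and in 1 for *Huwe1* (-0.55 to -0.33). With the tendon marker mean as a covariate they were at 0.96, 1.48 and -0.64, with unadjusted p-values of 0.0656, 0.0314 and 0.117 in limma. *Wdr5*, a subunit of histone methyltransferase complexes, was at -0.37 (unadjusted p = 0.119). The casein kinase genes *Csnk1d* and *Csnk1e*, whose kinases phosphorylate PER proteins, had log2 differences of 0.07 and 0.02.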

How the data were processed

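The authors hybridized 1 Clariom S array per sample, with normalization and summary in the Transcriptome Analysis Console, as the submitters' processing notes and the methods say. How probes were summarised, and the genome build: not given in the sources used here. They deposited log2 signals for 22206 probe sets, rounded to 2 decimals, and these were used as deposited. Symbols came from the platform annotation, which gives 1 symbol to 19572 probe sets, several to 0 and none to 2634. At most 1.27% of values were equal between any 2 arrays.

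The groups were compared by linear models with moderated variances (limma 3.58.1, functions lmFit and eBayes, under R 4.3.3), two-sided, over all probe sets, with Benjamini-Hochberg adjustment. Differences are u40Hz minus control. Unadjusted p-values and 95% intervals are from the same fit. Single values were compared by exact permutation of the mice (scipy 1.17.1). The model was tested on simulated data. The members and gene lists were chosen with earlier results of these data known, and no list was tested as a set. Named were all members and the other genes of the negative arm, E-box and ROR lists, up to 4 genes of each other list with the smallest unadjusted p, and the 5 genes nearest to the *Arntl* profile and the 5 nearest to its opposite (Gm, Rik and olfactory or vomeronasal receptor names passed over). *Csnk1d*, *Csnk1e*, *Myod1*, *Slc2a4* and *Tead1* were named after their values were seen. Alternatives were an intensity trend or robust prior, quantile normalization, median centring, leaving out probe sets with a mean under 5, array weights, averaging probe sets of 1 gene, marker means as covariates, and leaving out each mouse.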

Additional observations from a re-analysis of the deposited data

How the results depend on the processing

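*Arntl* kept its direction and an unadjusted p under 0.05 under each alternative that was run, with log2 differences from -3.67 (tendon marker mean as a covariate) to -2.02 (without u40Hz mouse 4). Its adjusted p in limma was at least 0.421 in each. With the tendon marker mean as a covariate *Rora* was at -0.19, *Clock* at -0.56, *Npas2* at -0.62, *Rorb* at -0.50 and *Arntl2* at -0.53, and with the slow fibre marker mean *Rora* was at 0.30, *Clock* at -0.13 and *Npas2* at -0.10, none with an unadjusted p under 0.05. Without each mouse in turn, *Rora* ran from -0.040 to 0.35, *Rorb* from -0.23 to 0.060, *Nr1d1* from -0.77 to 0.05, *Bhlhe40* from -0.16 to 0.092 and *Arntl2* from -0.58 to -0.21, and the members with an unadjusted p under 0.05 numbered from 1 to 2. Here the cause was not tested. *Clock* ran from -0.53 to -0.12 and *Npas2* from -0.38 to -0.055, with no unadjusted p under 0.05. The E-box-driven genes with an unadjusted p under 0.05 numbered 3, and from 3 to 5 (array weights) in the alternatives on all mice. Leaving out control mouse 1 gave 6, leaving out control mouse 8 gave 1, and each other omission gave 2. Those of the negative arm numbered 2, and from 2 to 4 (array weights) in the alternatives on all mice. They numbered 5 without control mouse 1, 2 without u40Hz mouse 10 and 1 without any other mouse. With dim probe sets left out, *Arntl2* and *Rorb* were not tested. The groups held different mice and no pairing between them is stated, so no paired analysis was made. The 95% intervals of the other 5 members, between -0.93 and 0.74 at their widest, show what 3 arrays a group leave unresolved.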

Other observations

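*Arntl*, *Arntl2*, *Clock* and *Npas2* belong to the bHLH-PAS family of transcription factors, and 15 relatives were measured, 6 of them higher and 9 lower on average with u40Hz stimulation (median log2 difference -0.20). Of the 15, 2 had an unadjusted p under 0.05 in limma, where 7.01% of all probe sets had such a p. The groups did not overlap in 2, against 12.4% of all probe sets. Both counts are *Arnt2* and *Sim2*. *Arnt2*, a partner of other bHLH-PAS factors, had a signal of 5.70, 5.76 and 5.51 in mice 4, 10 and 11 of the u40Hz-stimulation group, against 6.53, 6.46 and 6.53 in control mice 1, 6 and 8. The groups were far apart relative to the spread within them, with a log2 difference of -0.85 (standard error 0.18), an unadjusted p of 0.00122 in limma and 0.635 after adjustment. It ran from -0.90 to -0.78 when each mouse was left out, and was -0.71 with the tendon marker mean as a covariate (unadjusted p = 0.0709 in limma). *Sim2*, another family member, was at 9.93, 10.20 and 9.67 in the stimulated mice and at 10.47, 10.67 and 10.53 in the control mice (log2 difference -0.62, unadjusted p = 0.0147 in limma). Without u40Hz mouse 11 it was -0.49, with an unadjusted p of 0.0557 in limma. With the tendon marker mean as a covariate *Sim2* was at -0.67 (unadjusted p = 0.131 in limma). Control mouse 1 did not stand apart from the other controls in *Arnt2* or *Sim2*, unlike in *Arntl*. The hypoxia factor *Epas1* and the dioxin receptor *Ahr* had log2 differences of 0.71 and 0.56, with overlapping groups and limma p-values of 0.0727 and 0.113 before adjustment.

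Of 11 muscle genes listed as under BMAL1 control, all measured, 8 were higher and 3 lower on average, with 4 higher at an unadjusted p under 0.05. Of all probe sets, 51.3% had a higher mean and 3.86% were higher at that p. *Pdp1*, a phosphatase that activates pyruvate dehydrogenase, was at 15.19, 14.84 and 15.16 in the stimulated mice and at 14.87, 13.86 and 14.19 in the control mice (log2 difference 0.76, unadjusted p = 0.0244 in limma). The cell cycle kinase *Wee1* was at 0.72 (unadjusted p = 0.0344). *Dgat2*, which makes triglycerides, was at 3.01 (unadjusted p = 0.0274), with 13.41 in u40Hz mouse 4, where the adipocyte markers were high, 8.63 and 10.44 in the other stimulated mice, and 9.13, 6.26 and 8.07 in the control mice. It was at 1.72 without u40Hz mouse 4 and at 1.69 with the adipocyte marker mean as a covariate. *Usp2*, described above, was the fourth. The 3 lower genes were *Myod1*, *Slc2a4* and *Tead1*. *Myod1*, a myogenic factor, was at -0.93 (unadjusted p = 0.0958 in limma) with overlapping groups. Its signals were 4.64, 5.98 and 4.54 in the stimulated mice and 5.00, 6.57 and 6.38 in the control mice. *Slc2a4* was at -0.39 and *Tead1* at -0.09 (unadjusted p = 0.128 and 0.730). Leaving out control mouse 6 or control mouse 8 left 0 of the 11 with p under 0.05 before adjustment in limma, leaving out u40Hz mouse 4 or u40Hz mouse 11 left 2, and leaving out u40Hz mouse 10 left 6. *Pdp1* and *Wee1* kept such a p in 2 of 6 of these fits, and *Dgat2* in 3. With the tendon marker mean as a covariate *Pdp1*, *Wee1* and *Dgat2* were at 1.31, 1.13 and 6.30, with unadjusted p-values of 0.0263, 0.0650 and 0.00551 in limma.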
